A study of Mus musculus with 2 samples.

Results

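The genes described here are the ligands and receptors of the colony-stimulating factors: Csf1, Il34 and Csf2 among the ligands, and Csf1r, Csf2ra, Csf2rb and Csf3r among the receptors. They were chosen by name, and all 7 were found among the 32285 genes of both count matrices. Single cells came from injured mouse kidneys 14 days after the artery of 1 kidney was clamped and released, with 4 tamoxifen injections given after the injury in both groups. The control library came from mice without Cre (Cre-). The haplodeficient library came from Cdh5-CreERT2; Phd3f/+ mice, which carry 1 floxed allele of Phd3 (gene symbol Egln3) and a tamoxifen-inducible Cre driven by the promoter of Cdh5, a cadherin gene of endothelial cells. There was 1 library per group, both in batch 1, and the number of animals in each was not given in the sources used here. No test between groups was therefore possible, and every 95% interval below covers counting error only.

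After filtering, 8737 control and 9222 haplodeficient cells remained, with a median of 8762 and 5471.5 unique molecular identifiers (UMIs) per cell and a median mitochondrial share of 10.2% and 2.69%. The libraries shared 23 cell barcodes among these cells. Tubule-like cells made up 71.6% of the control and 38.5% of the haplodeficient library, and myeloid-like cells 12.1% and 27.4%. Levels are given as CPM, a gene's UMIs summed over the cells of a class and scaled to the same total for every class and library, so a class's size does not enter its level. Egln3, the targeted gene, had 58 UMIs and 24.2 CPM in control endothelial-like cells and 112 UMIs and 21.1 CPM in haplodeficient ones, a ratio of 0.870 (95% interval 0.628 to 1.22). A 3′ tag outside a deleted part would not register a deletion, so this value does not check the genotype.

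CSF1 and IL-34 are separate proteins that bind the same receptor, CSF1R, a tyrosine kinase of monocytes and macrophages on which these cells depend for survival and growth. In the kidney, tubule epithelium is a known source of both ligands, and macrophages that gather after ischaemia carry the receptor. GM-CSF, the product of Csf2, binds an alpha chain (Csf2ra) that pairs with a beta chain (Csf2rb) shared with the receptors of IL-3 and IL-5, and signals through JAK2 and STAT5. G-CSF acts through CSF3R, the main growth factor receptor of neutrophils.

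In GENCODE M21 (GRCm38) Csf1 (ENSMUSG00000014599) is a protein-coding gene at chr3:107741048-107760469 on the minus strand, Il34 (ENSMUSG00000031750) at chr8:110741829-110805924, minus, and Csf2 (ENSMUSG00000018916) at chr11:54247271-54249667, minus. The receptor gene Csf2ra (ENSMUSG00000059326) lies at chr19:61223957-61228429, minus, Csf2rb (ENSMUSG00000071713) at chr15:78325752-78353847, plus, and Csf3r (ENSMUSG00000028859) at chr4:126024550-126044440, plus.

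Upstream sequence is shown for a pair of members because Csf1 is the ligand that differed most between macrophage-like cells of the libraries, and Csf2ra a receptor chain found in all 4 myeloid classes. They are the 250 bases before the RefSeq start of Csf1 (chr3:107760470-107760719) and of Csf2ra (chr19:61228419-61228668), both on the minus strand of GRCm38.p6 and read 5′ to 3′. Capitals mark an NF-kB-type match in Csf1 (3 G, 2 bases of any kind, 3 T and 2 C, on either strand) and PU.1-type ETS cores (GAGGAA, either strand) in Csf2ra.
Csf1: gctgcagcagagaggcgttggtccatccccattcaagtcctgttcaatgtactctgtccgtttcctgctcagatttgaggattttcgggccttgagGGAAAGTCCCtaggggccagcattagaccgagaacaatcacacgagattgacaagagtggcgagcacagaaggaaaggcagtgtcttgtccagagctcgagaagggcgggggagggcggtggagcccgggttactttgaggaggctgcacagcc
Csf2ra: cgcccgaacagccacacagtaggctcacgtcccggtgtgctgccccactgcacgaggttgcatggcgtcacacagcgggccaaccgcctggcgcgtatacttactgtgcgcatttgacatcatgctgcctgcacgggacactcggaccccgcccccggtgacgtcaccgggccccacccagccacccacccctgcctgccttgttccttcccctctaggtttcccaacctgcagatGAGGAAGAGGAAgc
The NF-kB-type match began 154 bases before the start of Csf1, and the GAGGAA matches of Csf2ra began 14 and 8 bases before its start, directly after each other. Csf3r had 1 GAGGAA match, 86 bases before its RefSeq start. Over 32851 RefSeq windows running from 250 bases before to 50 bases after a start, 28.3% held GAGGAA and 1.63% the NF-kB-type motif on either strand. These matches describe letters and are not binding sites. RefSeq entries were not used here for Il34, Csf1r and Csf2rb.

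Csf1, the ligand made as secreted and membrane-bound forms, had its highest level in neutrophil-like cells, and among tubule cells in those of the descending thin limb. In neutrophil-like cells it stood at 618 CPM in control (102 UMIs, 95% interval 504 to 750) and 529 CPM in haplodeficient cells (626 UMIs, 489 to 572). Descending thin limb-like cells, the water-permeable segment of the loop of Henle, had 116 CPM (107 to 125) and 105 CPM (98.0 to 112). The gap between these classes exceeded their counting intervals in both libraries. A UMI of Csf1 was seen in 45.6% and 38.2% of neutrophil-like cells, at a median depth of 1559 and 1774 UMIs, against 0.645% and 0.871% of T cell-like cells at 2653 and 2551 UMIs. Free RNA in barcodes of 1 to 100 UMIs held 13.2 and 38.2 CPM of Csf1, and it would account for 0.154% and 0.270% of the Csf1 UMIs in neutrophil-like cells.

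Below these classes the order of Csf1 differed between the libraries. Endothelial-like cells had 61.0 CPM in control and 42.0 CPM in haplodeficient cells. Principal or connecting tubule-like cells, the salt- and water-regulating end of the tubule, had 51.4 CPM (45.8 to 57.4) and 86.0 CPM (79.2 to 93.3). Fibroblast-like cells had 46.9 and 52.7 CPM and pericyte or smooth muscle-like cells 42.7 and 28.7 CPM. In the control library the intervals of these 4 classes overlapped, so their order there is not resolved. Thick ascending limb-like cells had 30.0 and 25.7 CPM and injured tubule-like cells 30.3 and 34.4 CPM. Within the thick ascending limb, the Psca-led cluster had 57.3 and 51.9 CPM. Proximal tubule-like and T cell-like cells stayed below 4 CPM in both libraries.

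**Figure D1:**
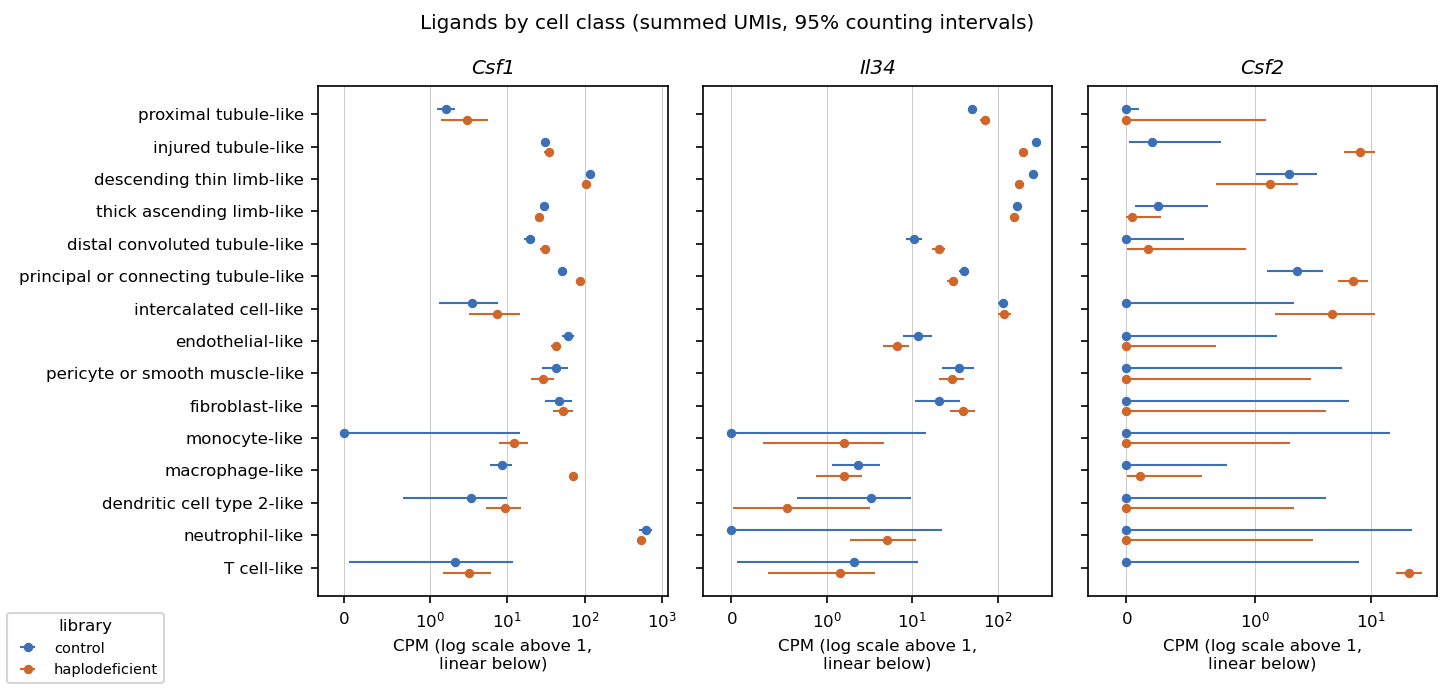
Levels of the ligands Csf1, Il34 and Csf2 (CPM, logarithmic above 1 and linear below) in 15 cell classes, with points for the control (blue) and haplodeficient (orange) library and bars for 95% counting intervals. Csf1 peaks in neutrophil-like cells (618 and 529 CPM), Il34 in tubule-like classes, and Csf2 stays below 22 CPM in every class drawn.

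The largest difference between libraries in Csf1 lay in macrophage-like cells. These had 40 UMIs (8.45 CPM, 6.04 to 11.5) in control and 678 UMIs (71.4 CPM, 66.2 to 77.0) in haplodeficient cells, a ratio of 8.45 (6.14 to 11.9). The signal sat in the macrophage-like cluster led by Gpnmb, with Spp1 and Fabp5 beside it, genes known from lipid-associated macrophages. There Csf1 stood at 16.1 CPM in 179 control cells and at 120 CPM in 421 haplodeficient cells, a ratio of 7.43 (5.24 to 10.9). The Ccl12-led cluster, the other large one (557 and 714 cells), had a Csf1 UMI in 7 control and 15 haplodeficient cells, never more than 2 in a cell. Without the Gpnmb-led cluster the log2 ratio of the class was 0.40 in place of 2.51.

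Within the Gpnmb-led cluster the difference was carried by a minority of cells with many UMIs. A UMI of Csf1 was found in 21 control cells (11.7%) and in 104 haplodeficient cells (24.7%), and at least 5 UMIs in 1 and 28 cells. The highest cell held 7 UMIs in control and 86 in the haplodeficient library, where the highest neutrophil-like cell of either library held 23. These counts are not matched for depth, with a median over both libraries of 10626.5 UMIs in this cluster and 1748 in neutrophil-like cells. By CPM, Csf1 was higher in neutrophil-like cells in both libraries. Thinned to 1000 UMIs per cell, 0% and 6.18% of the cells of the Gpnmb-led cluster retained a UMI of Csf1. The 5 cells with most UMIs held 51.5% and 37.5% of the total, and without them the levels were 8.12 and 77.4 CPM. Neutrophil markers summed to 79.1 CPM in control (5 of 9 seen) and 59.1 CPM in haplodeficient cells of the cluster (7 of 9 seen). The highest was Lcn2 in control cells (82 UMIs) and S100a8 in haplodeficient cells (141 UMIs). Retnlg and Ly6g were at 0 in both, but Ly6g was seen in few neutrophil-like cells too. Markers of the descending thin limb (8 of 8 seen in both) summed to 91.7 and 55.8 CPM. The part of these cell types in the result was not tested.

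**Figure D2:**
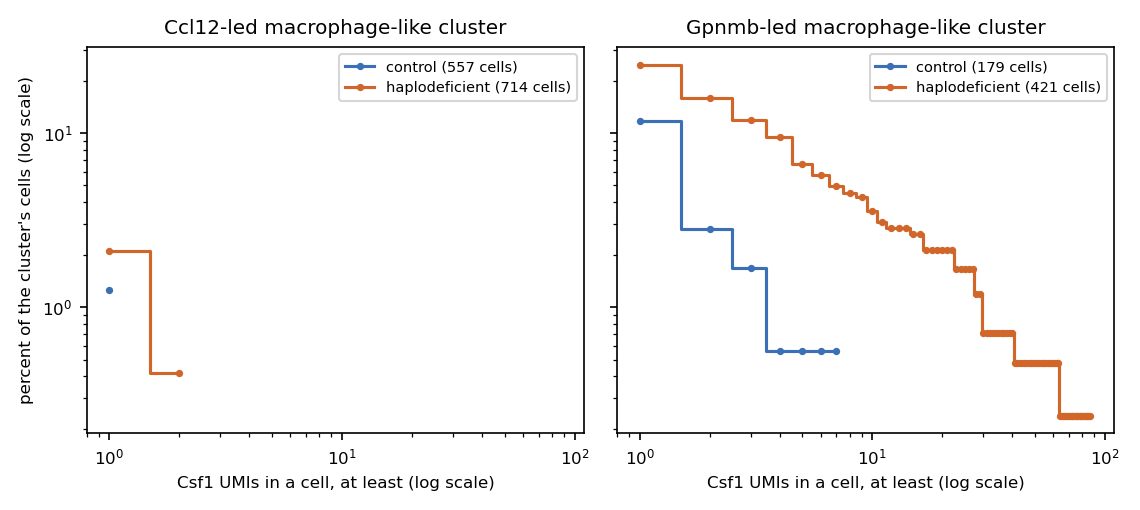
Percent of cells (logarithmic) that held at least the given number of Csf1 UMIs (logarithmic) in the Ccl12-led and Gpnmb-led macrophage-like clusters, for the control (blue) and haplodeficient (orange) library. In the Gpnmb-led cluster 1 control and 28 haplodeficient cells held 5 or more UMIs, and the haplodeficient line runs on to 86 UMIs.

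Csf1 differed in other classes by less. The ratio of haplodeficient to control CPM was 1.67 (1.46 to 1.93) for the principal or connecting tubule, 1.56 (1.26 to 1.95) for the distal convoluted tubule (19.6 and 30.6 CPM) and 0.688 (0.556 to 0.854) in endothelial-like cells. The endothelial-like difference depended on doublet removal: without it the log2 ratio was 0.01 in place of -0.49. It also differed among endothelial-like clusters. The Ehd3-led one, with glomerular capillary markers, had 153 CPM in 40 control cells and 67.4 CPM in 102 haplodeficient cells, a ratio of 0.441 (0.321 to 0.609). Podocyte markers, all 8 of 8 seen in that cluster, summed to 1250 and 1419 CPM, and their part in the result was not tested. The Stmn2-led cluster, with arterial markers, went the other way, from 27.4 CPM in control to 60.7 CPM in haplodeficient cells (ratio 2.21, 1.15 to 4.48). The ratio of 0.904 in descending thin limb-like cells rested on few cells, since 1 control cell held 87 of 707 UMIs, and without the 5 cells with most UMIs in each library its log2 ratio was 0.12 in place of -0.14.

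Among the named classes compared, Il34, the second CSF1R ligand, was highest in tubule-like ones in both libraries. Injured tubule-like cells, marked by Havcr1 and Lcn2, had 278 CPM (268 to 289) in control and 199 CPM (188 to 212) in haplodeficient cells. Descending thin limb-like cells had 260 CPM (247 to 273) and 175 CPM (167 to 184). In control this interval overlapped that of injured tubule-like cells, so the order of these classes there is not resolved. Thick ascending limb-like cells followed with 168 and 153 CPM, and acid-base regulating intercalated cell-like cells with 116 and 119 CPM. Proximal tubule-like cells had 50.7 and 71.0 CPM and principal or connecting tubule-like cells 39.9 and 29.8 CPM. The unnamed Tnc-led cluster, which had as many podocyte as pericyte markers, reached 242 CPM in 84 control cells and 212 CPM in 279 haplodeficient cells. The latter was above the 199 CPM of injured tubule-like cells. Among stromal classes Il34 stood at 35.1 and 29.5 CPM in pericyte or smooth muscle-like and at 20.9 and 39.5 CPM in fibroblast-like cells. The log2 ratio turned from -0.22 to 2.05 in the former with each library clustered alone, and from 0.78 to -0.38 in the latter without doublet removal, so neither has a settled direction.

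The Il34 transcript was common among cells of its sources. A UMI was found in 78.7% of control and 72.3% of haplodeficient injured tubule-like cells and in 61.0% and 66.0% of thick ascending limb-like cells. Thinned to 1000 UMIs, the shares were 21.0% and 18.0%, and 12.3% and 13.8%. T cell-like cells, which are not a source, had a UMI in 0.645% and 0.435% of cells, and in macrophage-like, monocyte-like and type 2 dendritic cell-like cells Il34 stayed at or below 4 CPM. Free RNA held 52.5 and 61.1 CPM of Il34 and would account for 0.782% and 0.807% of its UMIs in injured tubule-like cells. That part was larger where Il34 was low, at 37.0% and 17.4% of the UMIs in distal convoluted tubule-like cells (10.6 and 20.4 CPM).

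Il34 was lower in the haplodeficient library in its leading classes. The CPM ratio was 0.717 (0.668 to 0.770) in injured tubule-like, 0.674 (0.628 to 0.724) in descending thin limb-like and 0.913 (0.867 to 0.961) in thick ascending limb-like cells. It was above 1 for the proximal tubule (1.40, 1.21 to 1.61) and the distal convoluted tubule (1.92, 1.44 to 2.55). As log2 ratios these were 0.45 and 0.70. The median over genes with a mean of at least 50 CPM also lay above 0 in these classes, at 0.20 and 0.11. The proximal tubule log2 ratio of 0.45 was 0.13 at a mitochondrial limit of 25%, 0.64 with each cluster given the same weight in both libraries and 1.35 with each library clustered alone. In intercalated cell-like cells the CPM ratio was 1.03 (0.819 to 1.29), with an interval that spans both directions.

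The ligands also differed in where their UMIs lay. Tubule-like cells held 70.9% of the Csf1 UMIs of control cells and 51.4% of those of haplodeficient cells, while stromal-like cells (endothelial, pericyte or smooth muscle and fibroblast) held 7.02% and 6.44%. Myeloid-like cells held 5.07% and 28.3% of Csf1. For Il34, tubule-like cells held 90.0% and 80.6% and myeloid-like cells 0.134% and 0.310%. These shares move with the makeup of each library, in which tubule-like cells formed 71.6% and 38.5%. By share, the tubule held the largest part of both ligands in both libraries. Its part of Csf1 was below its part of all UMIs in both libraries, while its part of Il34 was above it. Csf1 alone of the 2 had a large myeloid portion in the haplodeficient cells.

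**Figure D3:**
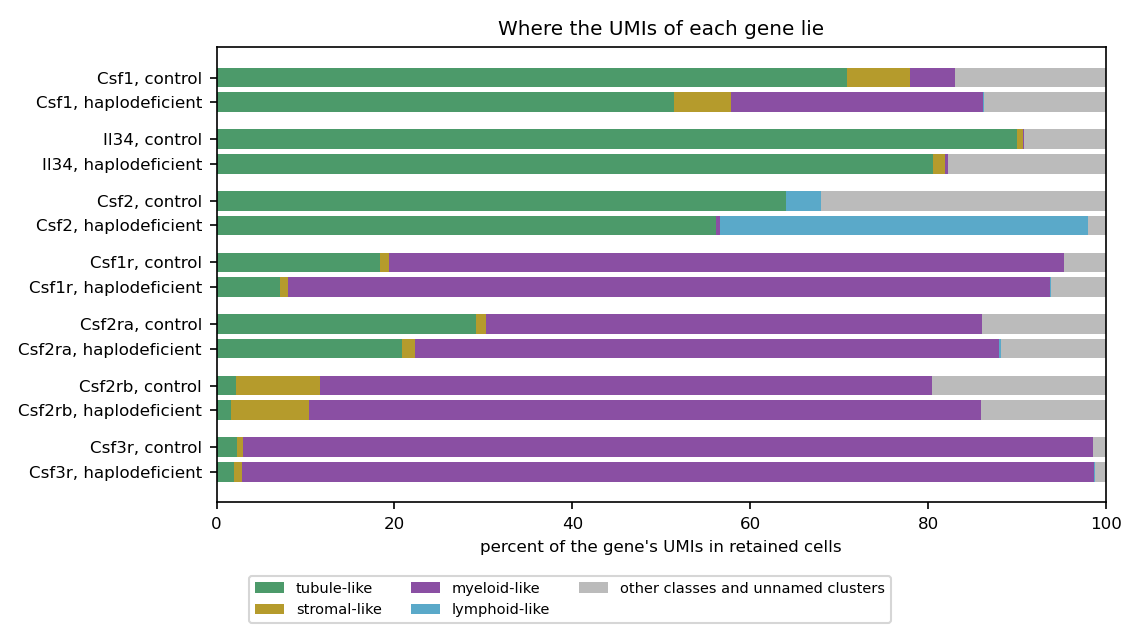
Share of each gene's UMIs (percent of its UMIs in all retained cells) that lay in tubule-like, stromal-like, myeloid-like and lymphoid-like cells and in all others, by library. Tubule-like cells hold 70.9% and 51.4% of Csf1 and 90.0% and 80.6% of Il34, while myeloid-like cells hold 75.9% and 85.7% of Csf1r.

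Csf2, the GM-CSF gene, was rare, with 50 UMIs in control and 196 in haplodeficient cells (0.468 and 2.09 CPM over all cells). In T cell-like cells there were 0 UMIs among 155 control cells (upper limit 7.78 CPM) and 60 UMIs in 15 of 919 haplodeficient cells (21.3 CPM, 16.3 to 27.4). The highest of these cells held 15 UMIs, and the 5 highest held 80.0% of the total. Gamma-delta T cell-like cells, too few in control for comparison, had 2 UMIs in 23 control cells and 21 UMIs in 16 of 119 haplodeficient cells (55.9 CPM). Injured tubule-like cells had 2 UMIs in control, and 43 UMIs in 4 of 285 haplodeficient cells. Principal or connecting tubule-like cells had 14 UMIs in 3 cells and 48 UMIs in 7 cells. Each of these levels rests on few cells, and none bears a statement about a class as a whole.

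G-CSF, IL-3 and IL-5 are the other ligands that bear on these receptors. Csf3, the G-CSF gene, had 108 UMIs (17.7 CPM) in control and 158 UMIs (23.1 CPM) in haplodeficient principal or connecting tubule-like cells. Il3 had 0 UMIs in retained cells of either library, an upper limit of 0.0345 and 0.0394 CPM, and Il5 had 4 and 8.

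Csf1r (ENSMUSG00000024621, chr18:61100598-61132149, plus), the receptor of CSF1 and IL-34, marked the mononuclear phagocytes. Monocyte-like cells had the highest level, 883 CPM (771 to 1006) in 56 control cells and 925 CPM (882 to 969) in 376 haplodeficient cells. Macrophage-like cells had 619 CPM (596 to 641) and 477 CPM (464 to 491), type 2 dendritic cell-like cells 275 and 273 CPM, and neutrophil-like cells 90.9 and 60.03 CPM. This order was the same in both libraries, and neighbouring classes had intervals that did not overlap. A UMI was found in 98.2% and 93.6% of monocyte-like and in 88.9% and 80.6% of macrophage-like cells, against 1.29% and 0.762% of T cell-like cells. Thinned to 1000 UMIs, the shares were 44.6% and 58.1% for monocyte-like and 49.1% and 38.5% for macrophage-like cells. With at most 56 monocyte-like cells in control, the order of these classes by cell share is not resolved there.

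Among macrophage-like cells the Ccl12-led cluster had 761 and 626 CPM of Csf1r and the Gpnmb-led one 438 and 383 CPM. The class was lower in the haplodeficient library, with a ratio of 0.772 (0.736 to 0.809), and so were both clusters, at 0.822 (0.774 to 0.873) and 0.875 (0.808 to 0.947). Csf1r was also seen in 23 of 28 control (82.1%) and 114 of 121 haplodeficient (94.2%) macrophage-like cells with a Csf1 UMI. Of all macrophage-like cells, 88.9% and 80.6% had a Csf1r UMI. These shares rise with depth and were not matched for it, so they do not show more Csf1r in cells with Csf1. Of the 121 cells, 104 lay in the Gpnmb-led cluster, with a median of 10626.5 UMIs over both libraries, against 4597 in the Ccl12-led one.

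Low levels of Csf1r appeared in tubule classes. Proximal tubule-like cells had 10.1 CPM (367 UMIs) in control and 33.3 CPM (100 UMIs) in haplodeficient cells, a ratio of 3.31 (2.62 to 4.13), and 5 cells held 47.0% of the haplodeficient UMIs. Free RNA, at 23.3 and 90.9 CPM of Csf1r, would account for 6.29% and 7.21% of these UMIs. Macrophage markers, 10 of 10 seen in both libraries, summed to 776 and 1250 CPM in proximal tubule-like cells, and to 268 and 343 CPM without Apoe, which held most of their UMIs. Their part in the result was not tested. Injured tubule-like cells also had more, 7.28 and 18.3 CPM (ratio 2.51, 1.84 to 3.46), where free RNA would account for 13.2% and 13.1%. The log2 ratio of 0.92 in these cells ranged from 0.03 to 1.22 over the alternatives. Descending thin limb-like cells had 28.2 and 17.5 CPM, where free RNA would account for 5.46% and 27.1%. Ratios were below 1 there (0.622) and in distal convoluted (0.465) and principal or connecting tubule-like cells (0.502).

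**Figure D4:**
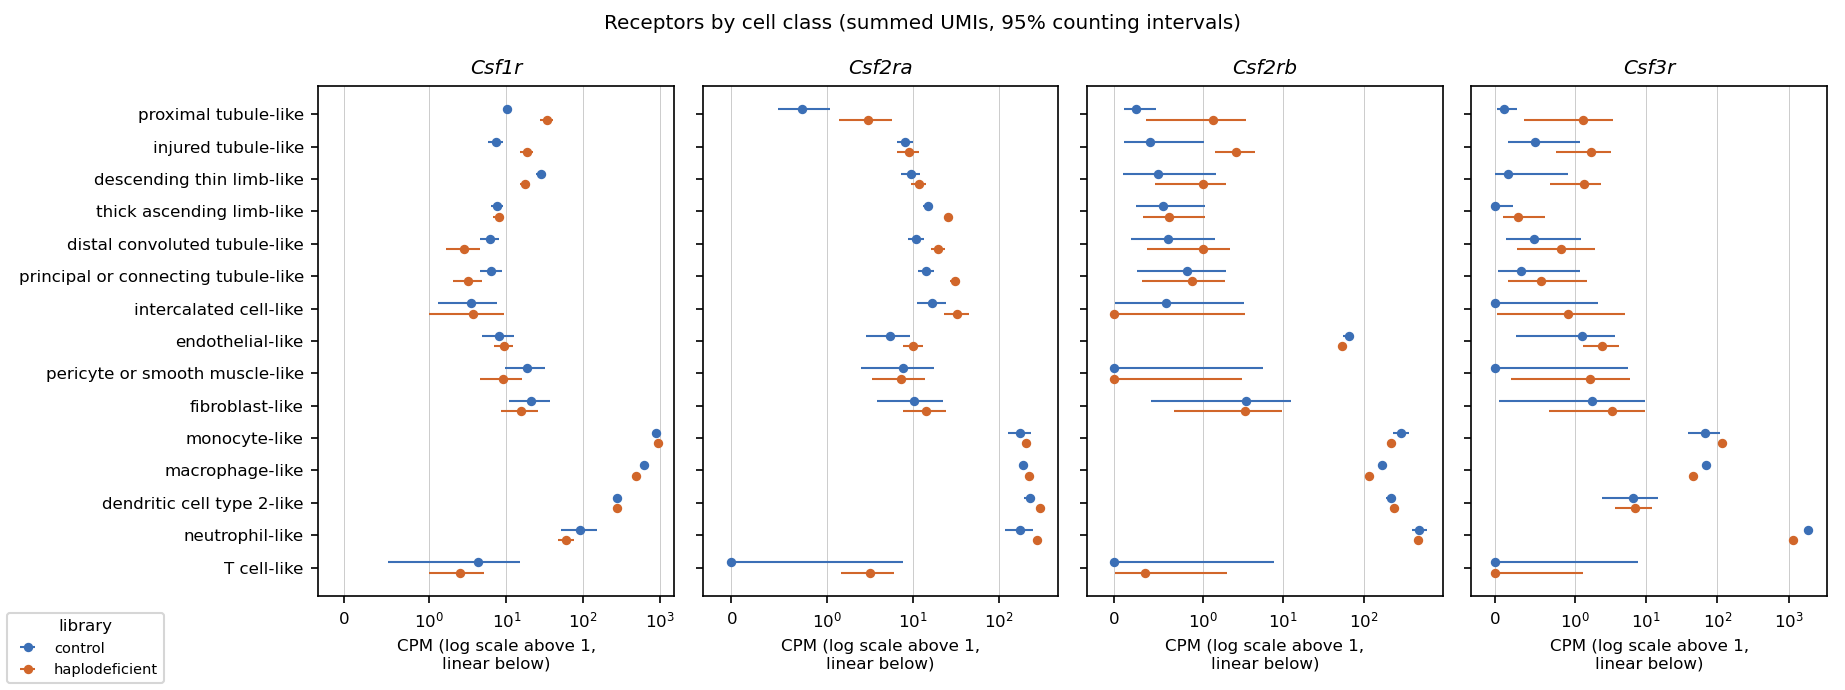
Levels of the receptors Csf1r, Csf2ra, Csf2rb and Csf3r (CPM, logarithmic above 1 and linear below) in 15 cell classes, with points for the control (blue) and haplodeficient (orange) library and bars for 95% counting intervals. Csf1r peaks in monocyte-like cells (883 and 925 CPM), Csf3r in neutrophil-like cells (1829 and 1137 CPM), and Csf2rb has a further, non-myeloid level in endothelial-like cells (65.6 and 54.2 CPM).

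Csf2ra, the GM-CSF-binding chain, was found at 176 to 299 CPM in all 4 myeloid classes. Type 2 dendritic cell-like cells had 229 CPM (199 to 263) and 299 CPM (274 to 326), macrophage-like cells 190 and 223 CPM, monocyte-like cells 178 and 206 CPM, and neutrophil-like cells 176 CPM (118 to 252) and 281 CPM (251 to 313). In the control library the intervals of monocyte-like, macrophage-like and neutrophil-like cells overlapped. All 4 ratios lay above 1, at 1.30 (1.11 to 1.54), 1.18 (1.09 to 1.27), 1.16 (0.847 to 1.61) and 1.60 (1.09 to 2.42), and the monocyte-like interval includes 1. Tubule classes other than the proximal tubule had 8.19 to 17.0 CPM in control and 8.97 to 33.0 CPM in haplodeficient cells. Ratios above 1 were thus not particular to myeloid classes. They were 2.15 (1.67 to 2.79) for principal or connecting tubule-like and 1.95 (1.16 to 3.29) for intercalated cell-like cells. Distal convoluted tubule-like cells had 1.83 (1.38 to 2.43) and thick ascending limb-like cells 1.68 (1.44 to 1.96). In descending thin limb-like (1.23, 0.883 to 1.73) and injured tubule-like cells (1.09, 0.749 to 1.58) the interval includes 1. The free RNA, at 15.9 and 69.5 CPM of Csf2ra, would account for 3.17% to 11.1% of the Csf2ra UMIs of these classes in control and for 5.6% to 31.1% in haplodeficient cells, with the lowest values in intercalated cell-like and the highest in descending thin limb-like cells.

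Csf2rb, the signalling beta chain, was highest in neutrophil-like cells, at 497 CPM (395 to 617) and 469 CPM (431 to 510). Monocyte-like cells had 293 and 220 CPM, type 2 dendritic cell-like cells 222 and 238 CPM, and macrophage-like cells 168 and 118 CPM. The macrophage-like ratio was 0.703 (0.641 to 0.771), while that of Csf2ra in the same cells was 1.18, so the chains of this receptor differed in opposite directions there. Cells with a UMI of both chains made up 51.8% and 60.2% of type 2 dendritic cell-like, 28.6% and 35.1% of monocyte-like, 24.7% and 27.1% of macrophage-like and 11.7% and 22.4% of neutrophil-like cells. These shares rise with depth, and neutrophil-like cells were the shallowest of the 4 classes.

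Outside the myeloid classes Csf2rb was an endothelial transcript, at 65.6 CPM (157 UMIs) in control and 54.2 CPM (288 UMIs) in haplodeficient cells, a ratio of 0.826 (0.678 to 1.01). Pericyte or smooth muscle-like cells had 0 UMIs in both libraries. The level was concentrated in the Cldn5-led cluster, whose subtype markers were those of descending vasa recta, the vessels that carry blood into the medulla. It had 209 CPM in 90 control cells and 217 CPM in 154 haplodeficient cells, a ratio of 1.04 (0.832 to 1.30), with a UMI in 52.2% and 55.8% of cells. The Plvap-led cluster had 26.3 and 24.5 CPM, and the Ehd3-led and Stmn2-led ones less than 8 CPM. Csf2rb2, the second beta chain of mice, which serves IL-3, followed the same pattern, with 191 and 222 CPM in the Cldn5-led cluster. Csf2ra was 4.75 and 6.89 CPM there, and 1.10% and 1.26% of endothelial-like cells held a UMI of both Csf2ra and Csf2rb. An unnamed cluster led by Cldn5 and Sox17, which held as many pericyte as endothelial markers, had 167 and 102 CPM of Csf2rb and 5.35 and 12.96 CPM of Csf2ra. Both chains were seen in 1 of its 43 control cells (2.33%) and in 14 of its 69 haplodeficient cells (20.3%), at a median depth of 16484 and 19462 UMIs. Thinned to 1000 UMIs, 0 of the 43 and 1 of the 69 cells kept a UMI of Csf2ra.

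**Figure D5:**
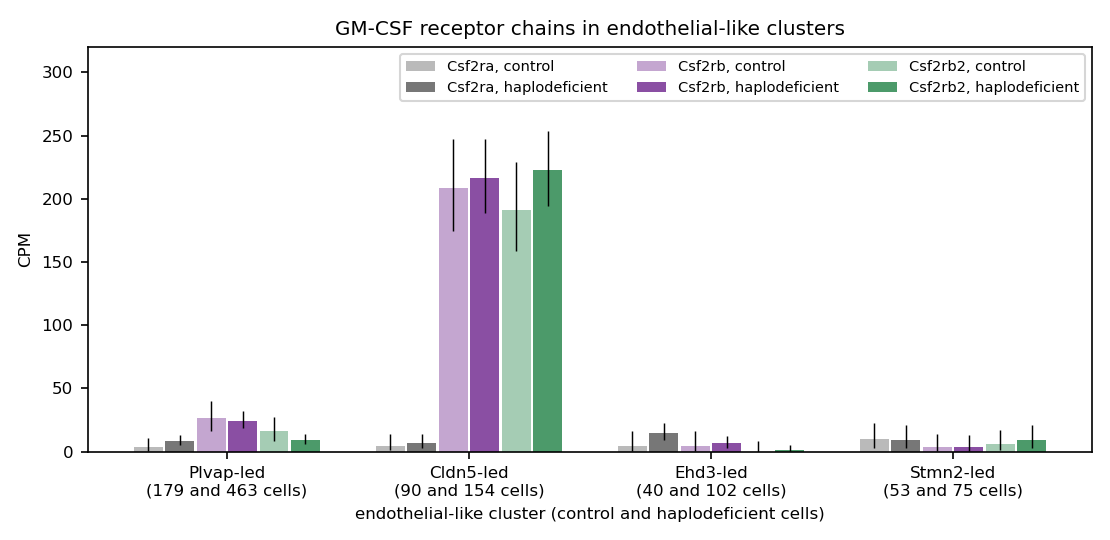
Levels (CPM) of Csf2ra, Csf2rb and Csf2rb2 in the 4 endothelial-like clusters, with pale bars for the control and dark bars for the haplodeficient library and lines for 95% counting intervals. Csf2rb (209 and 217 CPM) and Csf2rb2 (191 and 222 CPM) stand in the Cldn5-led cluster, where Csf2ra stays at 4.75 and 6.89 CPM.

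Markers of myeloid cells were also looked at in the Cldn5-led cluster. Macrophage markers summed to 1310 and 1357 CPM there (5 and 9 of 10 seen), and to 509 and 567 CPM without Apoe, with Adgre1 at 0 in both libraries. Monocyte markers summed to 39.5 and 150 CPM (4 and 5 of 9 seen), and to 7.91 and 5.90 CPM without Plac8, with Chil3, Ms4a4c and F13a1 at 0 in both. Neutrophil markers summed to 19.0 and 22.6 CPM (2 and 4 of 9 seen), with Lcn2 highest (11 and 10 UMIs). S100a8 and Retnlg were seen in the haplodeficient cells only. Mmp8, Mmp9, Cxcr2, Ly6g and Il1r2 were at 0 in both, but Mmp8 and Ly6g were seen in under 10% of neutrophil-like cells too. The part of these myeloid cell types in the result was not tested. Csf2rb and Csf2rb2 are near copies that lie close together on chromosome 15. Of 4811 windows of 90 bases, the read length, 394 (8.19%) of the Csf2rb transcript also occurred in Csf2rb2, but 0 of 411 in its last 500 bases, where 3′ tags fall.

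Csf3r, the G-CSF receptor, was nearly confined to myeloid-like cells, which held 95.6% of its UMIs in control and 95.8% in haplodeficient cells. Neutrophil-like cells had 1829 CPM (302 UMIs, 1629 to 2048) and 1137 CPM (1345 UMIs, 1077 to 1200), a ratio of 0.622 (0.548 to 0.707). A UMI was found in 80.6% and 71.2% of them, and after thinning in 68.8% and 56.4%. Macrophage-like cells had 69.5 and 44.8 CPM (ratio 0.644, 0.557 to 0.746) and monocyte-like cells 67.3 and 117 CPM (1.75, 1.07 to 3.05). The control monocyte-like level rests on 17 UMIs in 56 cells, and the log2 ratio of 0.76 ranged from 0.31 to 1.21 over the alternatives. T cell-like cells had 0 UMIs in both libraries. Of the Csf3r UMIs, neutrophil-like cells held 44.2% in control and 64.4% in the haplodeficient library, in which they were more numerous (103 and 617 cells).

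Across the 15 classes with at least 50 cells in each library there were 105 pairs of member and class, and the size of each difference was set against all other genes. A pair counted as eligible when its mean reached 50 CPM and its UMIs 30, and it passed with an absolute log2 ratio of at least 1, after adding 5 CPM to both values, and counting intervals that did not overlap. Of 25 eligible pairs 0 passed, where 2.06% of all eligible pairs of gene and class did. The median log2 ratio of these 25 pairs was -0.13.

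With the minimum at 10 CPM, 3 of 44 pairs passed (6.82%), where 1.96% of all pairs did, and 0.833% in the higher direction. They were Csf1 in macrophage-like, Csf2 in T cell-like and Csf1r in proximal tubule-like cells, each higher in the haplodeficient library. Csf1 and Csf2 were below 10 CPM in control there and reached that mean through the haplodeficient library alone, so nothing is read from the share of members that passed. Without the 5 cells with most UMIs of the gene in each library, the log2 ratio fell to 0.89 for Csf2 (from 2.40) and to 0.71 for Csf1r (from 1.35), and at a mitochondrial limit of 25% that of Csf1r was 0.69, all under the size of 1 that the rule asks. The share of all eligible genes that passed as higher was 0.324%, 0.842% and 1.72% in these classes. Single clusters were judged at the higher minimum mean of the main rule. In the Gpnmb-led macrophage-like cluster 0.662% of eligible genes passed as higher, Csf1 among them. Csf1 was below that minimum in the control cells of this cluster and reached the mean through the haplodeficient library alone, so nothing is read from its pass there. In the Ehd3-led endothelial-like cluster 0.922% passed as lower, again with Csf1.

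The genes around these receptors were taken from 6 lists. Of 19 genes of CSF1R signalling, 12 were eligible in macrophage-like cells, and 0 passed the size rule, where 0.992% of all eligible genes did, with a median log2 ratio of -0.18 against -0.01 for all eligible genes. Of 16 genes of the JAK-STAT relay 8 were eligible there and 0 passed (median -0.24), and of 14 myeloid transcription factors 10 were eligible and 0 passed (median -0.10). In monocyte-like cells, where 3.5% of all eligible genes passed, 1 of 17 signalling genes did. This was Pik3cg, a lipid kinase subunit, with 146 CPM in control and 64.3 CPM in haplodeficient cells. Irf8, a transcription factor that directs monocyte and dendritic cell fate, passed in the same class with 43.5 and 103 CPM. The control values rest on 56 cells, with 37 UMIs of Pik3cg and 11 of Irf8.

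In proximal tubule-like cells, where 1.66% of eligible genes passed as higher, Klf4, a zinc finger transcription factor, had 58.8 and 192 CPM. In fibroblast-like cells, where 2.06% of eligible genes passed as lower, Kitl, the ligand of KIT, had 87 UMIs (151 CPM) in control and 19 UMIs (20.9 CPM) in haplodeficient cells, as the 1 eligible gene of the 7 related ligands there. Kitl reached the minimum mean through the control library alone. Of 10 genes known to follow GM-CSF, 3 were eligible in macrophage-like cells and 0 passed. Of the 9 related receptors and co-receptors 2 were eligible in macrophage-like cells and 0 passed. Sdc1, a syndecan that binds IL-34, had 74.0% and 77.1% of its UMIs in tubule-like cells.

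The genes whose levels across the 15 classes ran most like each member were named by Pearson's r of log2 levels averaged over the libraries, among 8488 genes, as a description. For Csf1r they were Nlrc4 (r = 0.98), Clec4a3 (0.96) and March1 (0.96), and for Csf3r F630028O10Rik (0.99), P2ry13 (0.98) and Acod1 (0.98). Csf2rb was closest to Mctp1 (0.98), Fes (0.98) and Csf2rb2 (0.98), and Csf2ra to Rassf4 (0.95), Wfdc17 (0.95) and Il1b (0.94). Il34 was closest to 2200002D01Rik (0.93), Dhx32 (0.91) and Dync2li1 (0.91). Csf1 had looser neighbours in Tnfrsf23 (0.86), Dhrs7 (0.86) and Oscp1 (0.85), as did Csf2 in Thada (0.81), Pglyrp2 (0.79) and Gramd3 (0.78). The 15 points share libraries and depth, and those of Csf2 are mostly near 0.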

How the data were processed

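Both libraries were droplet 3′ single-cell RNA libraries, and groups were taken from the genotype labels. The deposited values are raw UMI counts for each gene in each barcode, from Cell Ranger 4 per the file headers, on mm10 per the submitters' processing notes. Of 32285 gene identifiers 32158 (99.6%) matched GENCODE M21. The members and lists were chosen with earlier results of these data known, and the scoring that names clusters was set after the data were seen.

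Barcodes with at least 500 UMIs, 200 genes and at most 50% mitochondrial UMIs were kept (10026 and 10056 passed the first pair of limits), less 574 and 30 over the mitochondrial limit and 715 and 804 likely doublets (Scrublet scores in scanpy 1.11.5, 0.8% per 1000 cells). Retained cells were clustered together (leidenalg 0.10.2, resolution 1, 2000 variable genes without 11 colony-stimulating factor and related genes) into 35 clusters. A cluster was named "-like" from at least 3 markers, and 6 clusters (6.20% and 8.27% of cells) stayed unnamed. Marker checks found most of every class's list in at least 10% of its cells. Mmp8 and Ly6g were below that in neutrophil-like cells.

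UMIs were summed per class and library and scaled to CPM, with exact Poisson intervals for levels, exact binomial intervals for shares and exact conditional binomial intervals for ratios. Free RNA came from barcodes of 1 to 100 UMIs (6363410 and 5499352 UMIs in all). A class's free part was estimated as the median ratio of observed to expected UMIs over markers of other classes, related ones left out. Only markers with at least 50 expected UMIs were used, and markers seen above their expected UMIs were dropped. Named genes were the 7 members, genes of the other lists past the size rule in 7 stated classes (at most 3 per list and class), Csf2rb2, Csf3, Il3, Il5 and Sdc1, and the 3 most alike genes per member. Some genes that this rule names are not reported here. Alternatives varied the cell filters, doublets, clustering, scaling, pseudocount, minimum level and free RNA. The comparison of classes within a library rests on rebuilt names.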

Additional observations from a re-analysis of the deposited data

Results flagged for a closer look

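Some members had a higher level in the haplodeficient library in one class and a lower one in another, each with a counting interval of the CPM ratio that leaves out 1. With 1 library per group these differences between classes were not tested. The Csf1 ratio was 8.45 in macrophage-like cells and 0.688 in endothelial-like cells. The latter depended on doublet removal, without which the endothelial-like log2 ratio was 0.01 in place of -0.49. The lower Csf1 of descending thin limb-like and thick ascending limb-like cells also turned under an alternative, to log2 ratios of 0.12 and 0.18. The Il34 ratio was 1.92 in distal convoluted tubule-like and 0.674 in descending thin limb-like cells. The Csf1r ratio was 3.31 in proximal tubule-like and 0.622 in descending thin limb-like cells. The Csf3r ratio was 1.75 in monocyte-like cells, with 17 UMIs in control, and 0.622 in neutrophil-like cells.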

How the results depend on the processing

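The count of member-class pairs past the size rule, 0 of 25, became 2 of 21 with the libraries clustered separately, Il34 in pericyte or smooth muscle-like and proximal tubule-like cells, where 5.04% of all eligible pairs of gene and class passed. It was 3 of 44 at a minimum of 10 CPM (1.96% of all) and 4 of 96 with no low-value filter (1.19% of all). The last pair of changes follows from the pairs then eligible, and for the first the cause was not tested. Clustering each library alone also left the highest class as it was for 9 of 14 pairs of member and library. The others were Il34 in both libraries, then highest in descending thin limb-like cells, Csf2 in control, and Csf2ra in both.

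Without doublet removal the log2 ratio of Csf1 in endothelial-like cells was 0.0125 (from -0.49) and that of Il34 in injured tubule-like cells -0.31 (from -0.47). The latter was -0.25 at a mitochondrial limit of 25% and -0.35 at resolution 2. The log2 ratio of Csf1 in thick ascending limb-like cells was 0.18 (from -0.19) with cells classed one by one, and in descending thin limb-like cells 0.12 (from -0.14) without the 5 cells with most UMIs, an alternative added after the data were seen. In macrophage-like cells Csf1 was 1.91 (from 2.51) and Csf1r -0.30 (from -0.37) with equal cluster weights, and Csf1 was 0.40 without the Gpnmb-led cluster, also added after the data were seen. The last follows from leaving out the cells with most Csf1, and for the other changes the cause was not tested.

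The tubule-like share of Csf1 UMIs in control was 67.0% without doublet removal, and in the haplodeficient library 45.4% without it, 39.3% with each cell classed alone and 45.3% with libraries clustered alone. That of Il34 in control was 84.2%, 89.4% (mitochondrial limit of 25%) and 88.8% (libraries alone), and in the haplodeficient library 72.3%, 77.5% (each cell alone) and 71.8% (libraries alone).

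No paired analysis was possible because there was 1 library per group. Depth limits Csf2 and all classes with few cells, such as the 56 control monocyte-like cells.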
